A study of Camelina sativa with 159 samples.

Results

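CAM 219 is an early accession of Camelina sativa, and its leaf transcriptome was compared here with that of the other early accessions, asking of each leading gene whether 1 library or several carried the difference. The 3 libraries labelled CAM 219 (Cs082, Cs128 and S001C5C) were set against the libraries of 43 other accessions with a labelled flowering time under 48 days and a total of 200000 counts or more (49 libraries with Cs codes, 61 with S001C codes and 24 with S0013 codes), out of 159 libraries in all. A further 10 early libraries under that total, the 11 libraries of the 4 late accessions and the 1 library of Licalla, which has no flowering time, did not enter the comparison. RNA came from expanded true leaves of young seedlings, no treatment is named, and days to 50% flowering is the only trait in the labels: CAM 219 is given 47.9 days, the highest value among the 44 early accessions (43 to 47.9 days) and one it shares with CAM 275. Totals were 5182721 counts in Cs082, 4304141 in Cs128 and 5259266 in S001C5C, against 444464 to 15246389 (median 4404796) in the other early libraries. The study's methods speak of biological replicates, though the labels do not tie libraries to plants. In the main comparison all libraries were fitted together, so p-values rest mainly on the spread of the far more numerous other early libraries. A small p-value can therefore stand beside CAM 219 values that differ widely. Libraries of the same accession entered as separate replicates, and the CAM 219 side is 1 accession.

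C. sativa is an oilseed of the mustard family, a close relative of Arabidopsis with an allohexaploid genome, so that most genes occur as several very similar copies on different chromosomes. Accessions of such a crop differ in leaf expression in more than one way: a gene can be missing or silent in some lines, which gives an on or off pattern that every plant of the line shows, or it can respond to light, time of day, wounding or infection, which can differ from plant to plant of the same line. Replicate libraries of an accession are what separates a value shared by the line from a value of 1 plant or 1 library.

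Cs082 stood apart from both other CAM 219 libraries. Levels are given as CPM, counts relative to a library's TMM-scaled total, and a library's distance at a gene is its log2(CPM + 1) minus the median of the other early libraries. Cs082 correlated with the profile of those medians at r = 0.893 over 48420 genes, below all but 5 of the other early libraries (range 0.877 to 0.986, median 0.961), while Cs128 stood at 0.971 and S001C5C at 0.973. The 5 libraries below Cs082 had totals of 444464 to 988325 counts, against 5182721 in Cs082. Cs082 held 538 genes at least 2-fold above every other early library, where Cs128 and S001C5C held 0 each and no other early library held more than 58. The number of genes at 1 CPM or more was ordinary in all of them, 43386 in Cs082, 44286 in Cs128 and 43810 in S001C5C, against 39102 to 44813 elsewhere. Between pairs, r was 0.877 for Cs082 and Cs128, 0.847 for Cs082 and S001C5C and 0.951 for Cs128 and S001C5C, against 0.827 to 0.981 (median 0.953) over the 146 pairs of libraries that share another early accession. All but 5 of those pairs lay above the first of these values and all but 1 above the second, while the third was near their median. In the 5 pairs below the first value the smaller library held 444464 to 929164 counts.

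The on or off genes also did not group the 3 CAM 219 libraries together. Across 152 genes at 5 CPM or more in every library of at least 3 accessions and at 0.2 CPM or less in every library of at least 3 others, 85.8% of the other early libraries had their highest mean correlation with their own accession, at a median of 0.788. None of the CAM 219 libraries did. The genes were chosen on the other early libraries alone, so agreement within those accessions is partly built into the choice. The share of 85.8% and the median of 0.788 can therefore lie above what an accession left out of the choice would reach. Cs082 was nearest to CN 113672 (mean r = 0.560), with its own accession ranked 8 at 0.330. Cs128 was nearest to CAM 262 (0.572), just ahead of CN 113672 (0.55), with its own accession ranked 10 at 0.383. S001C5C was nearest to CN 101985 (0.814), whose libraries S001C20 and Cs150 correlated with it at 0.885 and 0.883, while CAM 219 ranked 27 at 0.204. Between Cs082 and Cs128 r was 0.509, against 0.151 for Cs082 with S001C5C and 0.257 for Cs128 with S001C5C. With looser limits of 2 and 0.5 CPM (660 genes) CN 113672 remained first for Cs082 (0.50) and CAM 262 for Cs128 (0.585), whereas S001C5C moved to CN 113731 (0.657), with CN 101985 ranked 3 (0.626) and its own accession ranked 30. At these genes Cs082 and Cs128 were nearer to each other than either was to S001C5C. Each still had nearer libraries under other labels. Over the 152 genes Cs082 was nearest to S001C24 of CN 113672 (r = 0.722) and S001C51 of CAM 260 (0.715). Cs128 was nearest to Cs053 of CN 113672 (0.685). With the looser limits S001C51 was nearest to Cs082 (0.670) and S001C4D of CAM 262 to Cs128 (0.609). A ranking of CAM 219 without S001C5C was added after the data were seen. The own accession, then only the other library of Cs082 and Cs128, stood at rank 2 of 44 for Cs082 and at rank 3 for Cs128 (rank 1 and rank 3 with the looser limits).

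**Figure D1:**
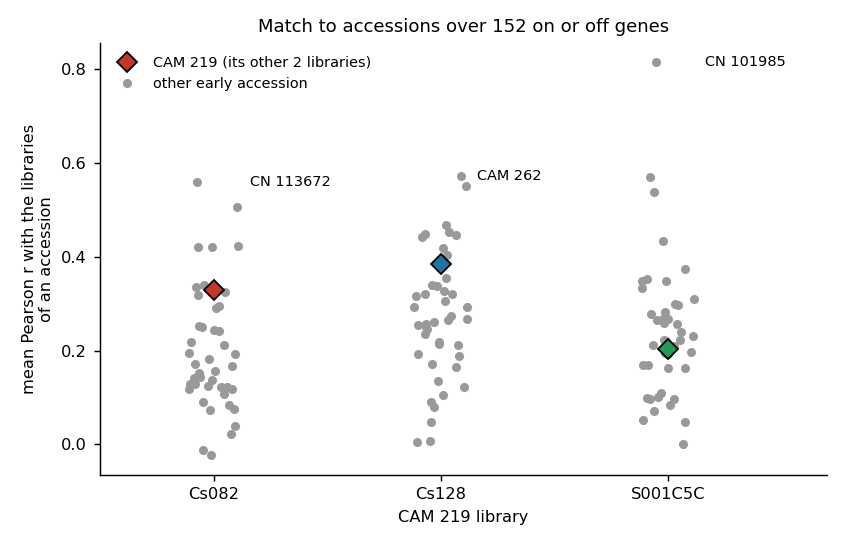
Mean Pearson r (y axis) of each CAM 219 library (x axis) with the libraries of every early accession over 152 on or off genes; the diamond is CAM 219 itself, grey points are the other 43 accessions, and the highest is named. S001C5C reached 0.814 with CN 101985 and 0.204 with CAM 219.

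A stretch of chromosome 10 shows the same split gene by gene. It was chosen after the values were seen, because 15 of the 23 genes lower in S001C5C alone lie in it. Of 27 tested genes between Csa10g034790.1 and Csa10g036220.1 with a median of 2 CPM or more in the other early libraries, S001C5C held 20 at 10% of that median or less, whereas Cs082 and Cs128 held 0 each. Cs150 and S001C20 of CN 101985 held 22 and 21 and were low at all 20 of the S001C5C genes. Libraries of the other 42 accessions held at most 4 (Cs143 of CAM 260, with a total of 444464 counts), and all but 12 of them held none. No gene numbered between Csa10g034880.1 and Csa10g035890.1 was among the 27, so the genes lie on either side of a gap in locus numbers. Csa10g036020.1, the most abundant gene of the stretch, had 579 CPM in Cs082, 668 in Cs128 and 1.63 in S001C5C, against a median of 788 CPM (1.48 to 1749) in the other early libraries, the lowest of which was Cs150, with 6.26 in S001C20. Csa10g035920.1 had 29.4, 41.1 and 0 CPM in the same order, against a median of 45.8, with 0 in Cs150 and 0.232 in S001C20. The third CN 101985 library, S001C2A, was in between, with 239 CPM of Csa10g036020.1 and 13.7 CPM of Csa10g035920.1, and its median level over the 20 genes was 0.237 of the other early median. Neighbouring genes at the low-numbered end of the stretch (Csa10g034790.1, Csa10g034800.1 and Csa10g034810.1) were at 5.99, 7.80 and 10.3 CPM in S001C5C, close to the medians of 5.95, 8.72 and 8.74 CPM in the other early libraries. None of the 27 genes passed the threshold in the comparison of all 3 libraries, where the values of Cs082 and Cs128 stand beside those of S001C5C.

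**Figure D2:**
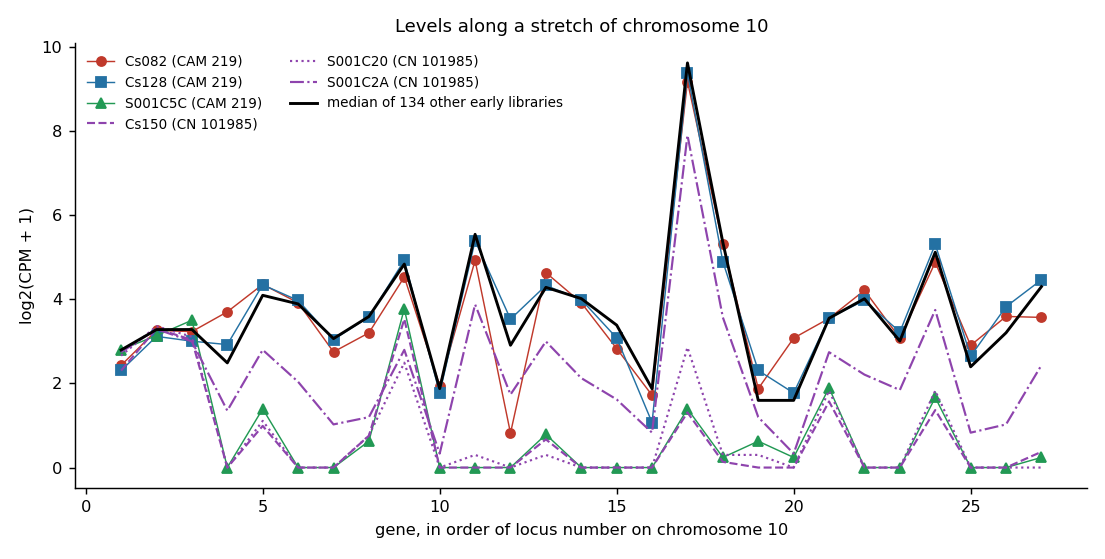
Level (log2(CPM + 1), y axis) of 27 genes in order of locus number on chromosome 10 (x axis) in the 3 CAM 219 libraries, the 3 CN 101985 libraries and as the median of the other early libraries. Locus numbers jump between Csa10g034880.1 and Csa10g035890.1. A count of 0 was found at 13 of the 27 genes in S001C5C, 15 in Cs150 and 14 in S001C20, and at 0 genes in Cs082 and Cs128.

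With all 3 libraries against the others, 980 of 48420 genes were higher in CAM 219 (2.02% of genes tested) and 36 were lower (0.0743%) at an adjusted p under 0.05 (edgeR quasi-likelihood test with Benjamini-Hochberg adjustment over all genes tested). A library was counted as behind a call where its distance was at least 1 on the log2 scale (called 2-fold here) in the direction of the call. Because the distance adds 1 CPM to each level, a library past 2-fold in CPM can go uncounted at a low gene. Cs082 was the only library behind 892 of the 980 higher genes (91.02%). Cs082 and Cs128 together stood behind 51, Cs082 and S001C5C behind 3, Cs128 alone behind 4, Cs128 and S001C5C behind 1, and all 3 libraries behind 3, while 26 had no library past that distance. A single library thus accounted for 896 higher genes. Of the 36 lower genes, 12 rested on Cs082, 2 on Cs128 and 2 on S001C5C alone, 9 on Cs082 and Cs128, 2 on Cs082 and S001C5C and 2 on all 3, with 7 that no library carried past 2-fold.

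Leaving out one library at a time showed how much each carried. Without Cs082, 4 genes were higher (0.00808% of 49512 tested) and 0 lower (0%), by edgeR with the same adjustment. At an unadjusted p under 0.05 that comparison held 455 higher and 681 lower genes, against 3784 and 1146 without Cs128. The adjustment uses the p-values of all genes tested, so where few are small the same evidence gives a larger adjusted p. A call lost without Cs082 can therefore stand beside an unchanged fold change. DESeq2 was run only on the 3 libraries together, where it called 479 higher and 43 lower. Of the 980 higher genes 4 kept their call without Cs082 and 579 turned to a negative fold change. Of the 36 lower genes 0 kept it. Without Cs128, 1429 genes were higher (2.87%) and 28 lower (0.0563%), and 955 and 11 of the original calls stood. Without S001C5C, 1707 were higher (3.44%) and 0.244% of the 49657 genes tested were lower, and 967 and 22 stood. Csa07g060540.1, named after its values were seen, was the only gene called in all 3 of these comparisons. It had 2.67 CPM in Cs082, 3.52 in Cs128 and 0.181 in S001C5C, against a median of 0 and a highest value of 4.58 CPM in the other early libraries (log2 fold change 4.29, edgeR adjusted p = 1.3e-07 with all 3 libraries, and 0.021 without Cs082). It still rested on Cs082 and Cs128, and S001C5C lay near the median.

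**Figure D3:**
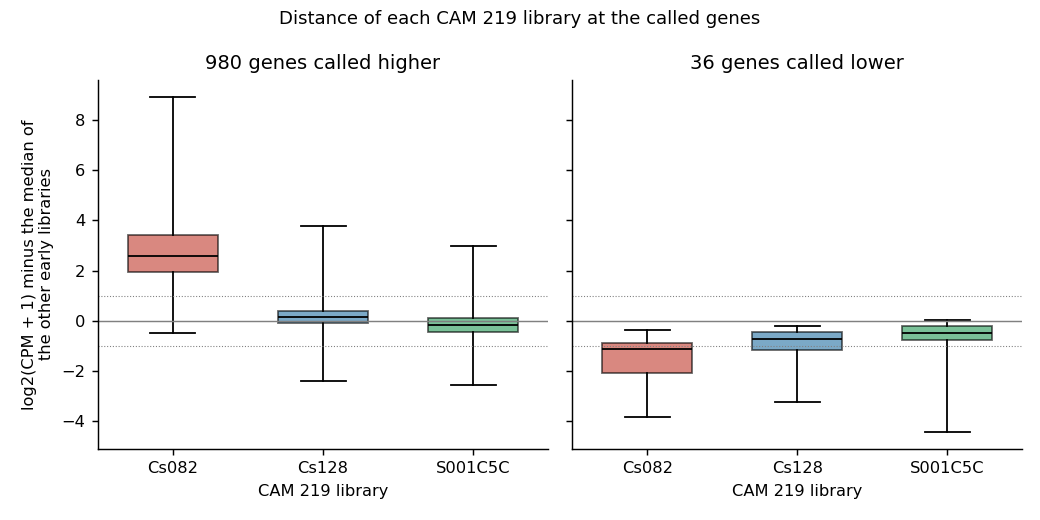
Distance (log2(CPM + 1) minus the median of the other early libraries, y axis) of each CAM 219 library (x axis) at the 980 genes called higher (left) and the 36 called lower (right); boxes show quartiles and medians, whiskers the full range, dotted lines 2-fold. At the higher genes only the box of Cs082 lies above the 2-fold line.

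Genes behind which all 3 libraries stood were few, and the files do not pair these identifiers with names. Csa11g057660.1 on chromosome 11 had 7.45 CPM in Cs082, 7.69 in Cs128 and 8.53 in S001C5C, against 0 to 9.97 CPM (median 0.209) in the other early libraries, a mean of 7.89 ± 0.566 (SD, n = 3) against 0.842 ± 1.88 (SD over the other early libraries). The 3 values were nearly equal, and 2 or 3 of the other early libraries exceeded each. The CN 113672 libraries Cs053, S001C24 and S001C1C were among the other high ones, at 7.68, 6.34 and 4.58 CPM, while S001C2D of that accession was at 0.176. Its log2 fold change was 3.20 (SE 0.72, edgeR adjusted p = 0.0018), with adjusted p = 1.0 without Cs082, 0.013 without Cs128 and 0.020 without S001C5C. The call was also lost with DESeq2 (adjusted p = 0.44) and with counts summed per accession (edgeR adjusted p = 0.37). Csa11g051740.1, also on chromosome 11, had 22.7, 20.2 and 11.8 CPM in the same library order, against 0 to 16.03 CPM (median 2.33). Cs082 and Cs128 lay above every other early library and S001C5C above all but 5. Its log2 fold change was 2.31 (SE 0.43, edgeR adjusted p = 4.5e-05, with 0.86 without Cs082 and 0.061 with counts summed per accession). Csa02g065380.1 had 589, 154 and 146 CPM, against 8.40 to 249 CPM (median 40.5), so that Cs082 alone lay outside the range of the others (log2 fold change 2.04, SE 0.55, edgeR adjusted p = 0.020, and 1.0 without Cs082). That call was also lost with DESeq2 (adjusted p = 0.15) and with accession sums (edgeR adjusted p = 0.51). Without Cs082 none of these 3 calls stood, but the log2 fold change was 3.23 for Csa11g057660.1 and 2.12 for Csa11g051740.1, about as large as with all 3 libraries, and 1.06 for Csa02g065380.1. For Csa11g057660.1 the SE was 0.87 there, and also 0.87 without Cs128, where the log2 fold change was 3.22 and the call stood. Its loss without Cs082 thus came with the adjustment over all genes tested.

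On the low side, Csa14g042600.1 had a count of 0 in all 3 CAM 219 libraries, against 0 to 11.3 CPM (median 3.59) in the other early libraries. Another 19 early libraries were also at 0, and every library of CN 113746 and CN 30475 was at 0.2 CPM or less, as were Cs053, S001C24 and S001C1C of CN 113672, whose library S001C2D had 4.75 CPM. Set against 3 counts over the 3 libraries, the gene was at least 18.1-fold lower in CAM 219 than the mean of the others (edgeR adjusted p = 0.021). The call was lost in each reduced comparison, with edgeR adjusted p = 1.0 without Cs082, 0.082 without Cs128 and 0.082 without S001C5C, though the 0 values themselves were shared by all. It was lost as well with accession sums (0.22), within the Cs code series (0.12), with accession as the factor (1.0) and against only the other CAM accessions (0.058). Csa16g051730.1 had 0.955, 0.879 and 1.09 CPM in Cs082, Cs128 and S001C5C, against 0 to 7.10 CPM (median 3.29). Only 9 or 10 of the other early libraries lay below each, and the log2 fold change of -1.76 (SE 0.50, edgeR adjusted p = 0.032) lost its call without Cs082 (adjusted p = 1.0), without Cs128 (0.14) and without S001C5C (0.084). The fold change itself stayed about as large in those comparisons, at -1.75, -1.70 and -1.85, and the call was lost too with accession sums (edgeR adjusted p = 0.32) and within the Cs code series (0.053).

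The 892 genes that rested on Cs082 alone were high by a wide margin in that library. The class requires Cs128 and S001C5C to lie under 2-fold, so their low distances follow from its definition. The median distance was 2.57 on the log2 scale in Cs082, 0.12 in Cs128 and -0.18 in S001C5C. Cs082 lay above every other early library at 880 of them, at a median of 8.18 times the median of the other early libraries, with 381 genes past 10 times and 29 past 100 times. Together they took 5.24% of the counts of Cs082, 0.757% of Cs128 and 0.615% of S001C5C, against 0.475% to 1.17% (median 0.690%) in the other early libraries. Among the 10, 50 and 100 largest fold changes of the main comparison 9, 43 and 86 were of this kind, and 0, 1 and 2 kept their call without Cs082.

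The leading genes of Cs082 show the pattern plainly. Csa05g006010.1 had 2301 CPM in Cs082, 2.42 in Cs128 and 1.27 in S001C5C, against 0 to 22.3 CPM (median 3.71) in the other early libraries (log2 fold change 7.11, SE 0.30, edgeR adjusted p = 1.2e-45). Its neighbour Csa05g006000.1 had 180 CPM in Cs082 and 0 in both others, against 0 to 2.45 CPM (log2 fold change 7.94, SE 0.35, edgeR adjusted p = 3.5e-44). Csa07g003450.1 had 548, 1.10 and 0.544 CPM in the same library order, against 0 to 12.5 CPM. In each, 1 library lay far above all others and the other CAM 219 libraries lay within their range. Csa19g027880.1 had 349, 0.220 and 0 CPM, against 0 to 6.07 CPM. Csa05g093360.1 had 1046, 5.93 and 4.17 CPM, against 0 to 156 CPM (log2 fold change 5.04, edgeR adjusted p = 2.2e-18). Without Cs082 the log2 fold changes of these 5 genes turned to -1.60 (Csa05g006010.1), -3.23 (Csa05g006000.1), -0.85 (Csa07g003450.1), -2.75 (Csa19g027880.1) and -1.08 (Csa05g093360.1), each with an edgeR adjusted p of 1.0. DESeq2 gave no adjusted p for any of these 5 genes. The first and the second of the genes named here carry adjacent locus numbers on chromosome 5.

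**Figure D4:**
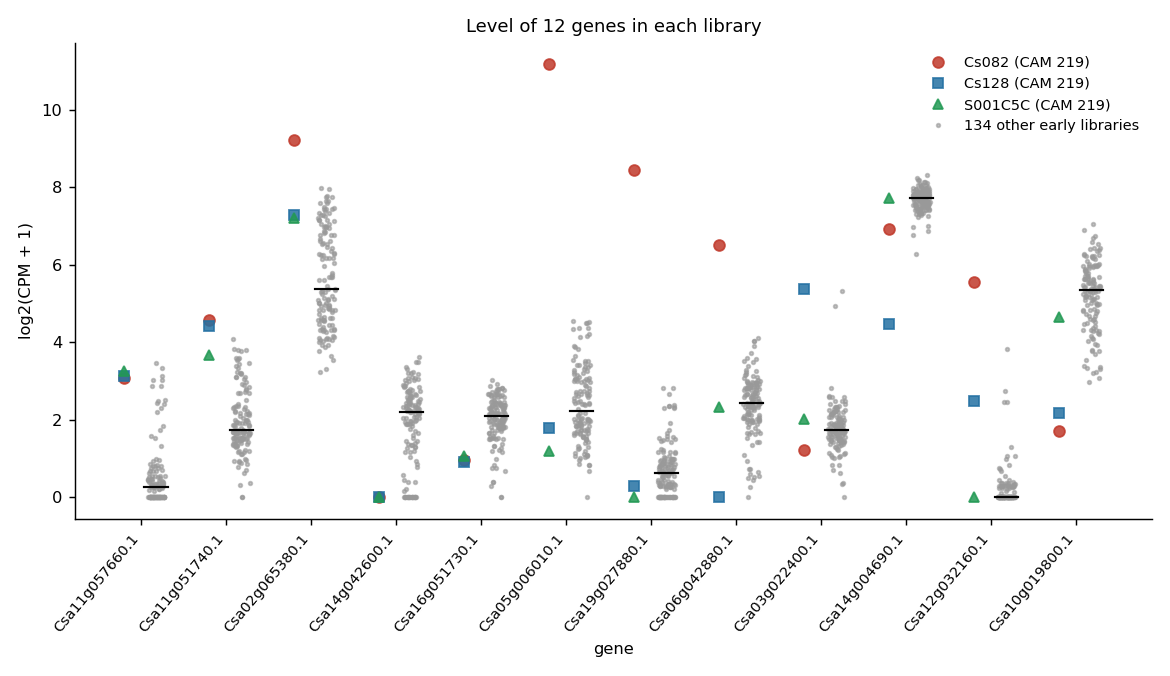
Level (log2(CPM + 1), y axis) of 12 genes (x axis) in the 3 CAM 219 libraries (coloured, left of each gene) and in the other early libraries (grey, with the median as a bar). The 3 coloured points coincide at Csa11g057660.1, Csa14g042600.1 and Csa16g051730.1, and Cs082 stands alone at Csa05g006010.1 (2301 CPM), Csa19g027880.1 (349 CPM) and Csa06g042880.1 (89.4 CPM).

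Genes lower through Cs082 alone were less extreme. Csa12g027710.1 had 0 CPM in Cs082, 4.18 in Cs128 and 6.17 in S001C5C, against 0.302 to 12.2 CPM (median 7.24), and its log2 fold change was -1.06 (SE 0.29, edgeR adjusted p = 0.025, and 1.0 without Cs082). Csa17g011460.1 had 2.1, 9.01 and 11.3 CPM against 2.41 to 44.8 CPM (median 15.9), and Csa07g001510.1 had 3.63, 8.13 and 9.25 CPM against 6.30 to 35.7 CPM (median 16.8). In all 3 genes Cs082 lay below every other early library, while Cs128 and S001C5C lay below the median but within the range. Their calls too were lost without Cs082 (edgeR adjusted p = 1.0 for both), and that of Csa17g011460.1 was lost without Cs128 (0.066) as well. The log2 fold changes without Cs082 were -0.47 for Csa12g027710.1, -0.64 for Csa17g011460.1 and -0.98 for Csa07g001510.1. With all 3 libraries they were -1.06, -1.09 and -1.29 in the same order. Part of each fold change thus remained without Cs082, most for Csa07g001510.1. Its distances were -0.96 in Cs128 and -0.80 in S001C5C, against -1.94 in Cs082.

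Few genes rested on either of the other libraries alone. Csa03g022400.1 had 1.34 CPM in Cs082, 40.4 in Cs128 and 3.08 in S001C5C, against 0 to 38.7 CPM (median 2.31), and the next highest values belonged to CN 113672 (38.7 in Cs053 and 29.8 in S001C1C). Its log2 fold change was 2.35 (SE 0.41, edgeR adjusted p = 8.5e-06), kept without Cs082 (5.7e-05) and lost without Cs128 (0.93). Csa08g027600.1 had 4.62 CPM in Cs128 and 0 in both other CAM 219 libraries, and all but 3 of the other early libraries were at 0. Csa14g003230.1 had 18.1, 47.3 and 15.2 CPM in Cs082, Cs128 and S001C5C, against 10.2 to 36.01 CPM (median 15.7). Both calls were lost without Cs128 (edgeR adjusted p = 0.86 and 0.98), and without Cs082 the first stood (0.014) and the second did not (0.053), at a log2 fold change of 0.94 against 0.72 with all 3 libraries. Among the genes lower through Cs128, Csa14g004690.1 had 120, 21.1 and 209 CPM against 76.7 to 318 CPM (median 210), so Cs128 lay below every other early library and S001C5C at the median (log2 fold change -0.84, SE 0.21, edgeR adjusted p = 0.0095). Its fold change was -0.86 without Cs082 (adjusted p = 1.0) and -0.34 without Cs128 (0.67), so Cs082 did not carry the size of it. For S001C5C, Csa10g033130.1 had 29.04, 40.2 and 19.96 CPM against 17.8 to 67.04 CPM (median 46.4), with 1 other early library below S001C5C and 3 below Cs082 (log2 fold change -0.64, SE 0.17, edgeR adjusted p = 0.014). It was -0.63 without Cs082 (adjusted p = 1.0) and -0.43 without S001C5C (0.33).

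Csa08g018640.1 was the single higher gene behind which Cs128 and S001C5C stood without Cs082, and it is named here after its values were seen. It had 2.1 CPM in Cs082, 4.84 in Cs128 and 7.98 in S001C5C, against 0 to 6.91 CPM (median 0.936). S001C5C was above every other early library and Cs128 above all but 2, and the library next below S001C5C was Cs150 of CN 101985. The log2 fold change was 2.06 (SE 0.42, edgeR adjusted p = 2.6e-04), kept without Cs082 (0.018) and lost without S001C5C (0.13).

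Each library was also set alone against the other early libraries, a comparison added after the data were seen and one that assumes the lone library varies as the others do. Cs082 alone gave 3193 higher and 579 lower genes, Cs128 alone 7 and 8, and S001C5C alone 1 and 23. Over the 23 low genes, S001C5C was at 10% of the other early median or less at 19, Cs150 at 18, S001C20 at 19 and S001C2A at 0, so that what set S001C5C apart was shared by the first and second of these CN 101985 libraries. Csa20g028560.1, named after its values were seen, had 29.04 CPM in Cs082, 22.9 in Cs128 and 0 in S001C5C, against a median of 24.1, with 0.197 in Cs150 and 0 in S001C20. The higher gene of S001C5C was Csa08g018640.1.

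The genes that Cs082 and Cs128 shared were examined as a class after the counts were known. Of the 51 higher genes, Cs082 was above Cs128 at 48, at a median ratio of 5.74, and lay above every other early library at 44, where Cs128 did so at 3. The call stood without S001C5C at all 51, without Cs128 at 44 and without Cs082 at 1. Csa12g032160.1 had 45.8 CPM in Cs082, 4.62 in Cs128 and 0 in S001C5C, against 0 to 13.3 CPM (median 0), with log2 fold change 5.79 (SE 0.52, edgeR adjusted p = 8.8e-18, and 1.0 without Cs082). DESeq2 did not call it (adjusted p = 0.22). Csa01g017170.1 had 64.2, 2.86 and 0.181 CPM against 0 to 8.32 CPM (log2 fold change 4.93, and 1.03 with an edgeR adjusted p of 1.0 without Cs082). Most of the height in this class was thus in Cs082 as well. The 4 CN 113672 libraries (S001C24, Cs053, S001C1C and S001C2D) lay at least 2-fold above the other early median at 32, 29, 27 and 22 of the 51 genes, and Cs060 of CN 113723 and S00136E of CN 113669 did so at 29 and 28 (median over the other early libraries 4). Over all genes tested, in CPM without TMM scaling, the shares were 5.02%, 4.64%, 11.2% and 7.49% in the CN 113672 libraries. They were 2.09% in Cs060 and 6.62% in S00136E.

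The 9 lower genes of the class differed in this respect, since Cs082 and Cs128 were about equally low. Csa02g071130.1 had 0 CPM in Cs082, 0 in Cs128 and 7.44 in S001C5C, against 0 to 14.97 CPM (median 7.81), and 1 of the other early libraries was also at 0 (log2 fold change -1.58, SE 0.38, edgeR adjusted p = 0.0042, and 7.0e-13 without S001C5C). Csa16g033950.1 had 0, 0 and 4.72 CPM against a median of 5.90, with 8 other early libraries at 0. Csa10g019800.1 had 2.29, 3.52 and 24.3 CPM against 6.82 to 131.3 CPM (median 39.3), below every other early library in both Cs082 and Cs128. In S001C5C all of these lay within the range of the other accessions. Csa11g033900.1 had 2.67, 5.06 and 48.4 CPM, against 1.14 to 71.2 CPM (median 51.1), and the low end of that range included CN 113672, with 3.07 CPM in Cs053, 2.41 in S001C24 and 1.14 in S001C1C but 40.8 in S001C2D. At 7 of the 9 genes S001C24 lay at least 2-fold below the median, at 4 Cs053 and S001C1C did, and at 0 S001C2D did. All 9 calls stood without S001C5C, none without Cs082 (edgeR adjusted p = 1.0 for the 4 genes named) and none without Cs128. In the comparison without S001C5C, of the calls also tested with all 3 libraries, both Cs082 and Cs128 stood behind 77 higher and 43 lower genes, Cs082 alone behind 1408 and 43, and Cs128 alone behind 8 and 5.

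The genes in which an accession dominates were picked with TAU, an index over accession means that is 0 for an even gene and 1 for a gene confined to 1 accession. Of 25570 genes with a mean of 10 CPM or more in at least 1 early accession, 223 had TAU above 0.9, and CAM 219 was highest for more of them than any other accession. Of these genes 80 were among the 980 called higher, 68 resting on Cs082 alone and 12 on Cs082 and Cs128, and 21 were too low outside Cs082 to be tested, whereas the next accession, CN 101990, was highest for 41. Since the accession mean chose these genes, their height is a description. Cs082 was the highest CAM 219 library at all of them, held 90% or more of the sum over the 3 libraries at 98, and was in every case the only CAM 219 library above all other early libraries. Computed without Cs082, the number dominant in CAM 219 was 0. It was 184 without Cs128 and 193 without S001C5C.

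Flowering genes were of interest because CAM 219 is the latest of the early accessions together with CAM 275. In Arabidopsis SOC1 and AGL19 encode MADS-box activators of flowering, SPL4 and SPL15 SBP-box factors that promote it, SNZ an AP2-like repressor and SDG16 a histone methyltransferase. Of 11 copies named by the study, which chose them on these samples, 10 were tested and 0 were called in either direction by edgeR (0 at an unadjusted p under 0.05, and 0 of either kind by DESeq2, lowest edgeR adjusted p = 0.69), beside 2.02% higher and 0.0743% lower over all genes tested, shares at which a list of this size would seldom hold a call. Their median log2 fold change was -0.30, beside -0.0017 over all genes tested. The SOC1 copy on chromosome 4, Csa04g063650.1, had 15.9 CPM in Cs082, 9.01 in Cs128 and 19.8 in S001C5C, against 1.23 to 35.9 CPM (median 17.4), and the copy on chromosome 6, Csa06g052060.1, had 24.5, 18.7 and 27.4 CPM, against 8.62 to 112.6 CPM (median 30.9). Both lay within the range of the other accessions in every library. The SPL4 copies had negative fold changes that did not pass the test (log2 -0.93 for Csa14g063510.1, -0.83 for Csa17g093410.1 and -0.99 for Csa03g060290.1), and each CAM 219 value of Csa03g060290.1 (0.191, 1.32 and 1.09 CPM) was below the median of the others (1.44). SNZ (Csa05g014000.1) was at 5.54, 8.13 and 9.98 CPM against a median of 8.60. AGL19 on chromosome 10, Csa10g020140.1, was at 9.36, 12.5 and 15.1 CPM against a median of 12.04, and the chromosome 12 copy, Csa12g033740.1, was at 2.48, 3.96 and 0.544 CPM against 2.40. SDG16 (Csa10g015090.1) was at 8.60 CPM in Cs082, 1.98 in Cs128 and 9.44 in S001C5C, against 0 to 16.7 CPM (median 8.60), and only 2 of the other early libraries were below Cs128.

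Of 30 transcripts that the study lists at its flowering time SNPs, 20 were tested and 1 was called, beside 2.02% higher and 0.0743% lower over all genes tested. Csa06g042880.1, annotated there as a member of the Pht1 family of phosphate transporters, membrane proteins that take up phosphate, had 89.4 CPM in Cs082, 0 in Cs128 and 3.99 in S001C5C, against 0 to 16.1 CPM (median 4.35). Only Cs082 lay above the range, and Cs128 was at its lower end. The log2 fold change was 2.66 (SE 0.39, edgeR adjusted p = 9.7e-08), and the call was lost without Cs082 (adjusted p = 1.0). A few uncalled genes of the list are given for their known roles, named after their values were seen. Phytoene desaturase (Csa11g040110.1), a carotenoid enzyme, had 50.05, 43.96 and 63.7 CPM in Cs082, Cs128 and S001C5C, against 42.6 to 82.3 CPM (median 58.3). AtKAO1 (Csa14g006430.1), an enzyme of gibberellin synthesis, had 11.3, 21.5 and 15.4 CPM against a median of 21.2. The chlorophyll a/b-binding protein Csa06g036860.1, a leaf gene of the light-harvesting antenna, had 779, 964 and 674 CPM, against 395 to 4471 CPM (median 1301), so all 3 libraries expressed it within the range of the other leaf libraries, below their median. No other leaf or non-leaf marker could be looked up, since the identifiers are not paired with descriptions in the sources used here.

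Of the 164 transcripts of the tan module, a co-expression group that the study derived from these libraries, 163 were tested and 0 were called in either direction by edgeR (3 higher and 4 lower at an unadjusted p under 0.05, 0 by DESeq2, lowest edgeR adjusted p = 0.35), beside 2.02% higher and 0.0743% lower over all genes. The median log2 fold change of the group was -0.032. Without S001C5C 1 member was lower, Csa17g088150.1, named after its values were seen, with 6.69 CPM in Cs082, 5.27 in Cs128 and 28.9 in S001C5C, against a median of 25.8 (log2 fold change -1.96, edgeR adjusted p = 0.015). Cs082 and Cs128 again took 1 side and S001C5C the other. Taken by library, 8 members were at least 2-fold above and 17 at least 2-fold below the other early median in Cs082, 0 and 9 in Cs128, and 3 and 2 in S001C5C. Over all genes tested the corresponding shares were 8.005% and 3.89% in Cs082, 1.10% and 0.983% in Cs128, and 0.543% and 1.25% in S001C5C.

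By locus number, the genes resting on Cs082 alone were spread over the genome, with 885 of 892 on the 20 chromosomes and the rest on scaffolds. The share per chromosome ran from 2.26% (chromosome 18) to 7.80% (chromosome 11), beside 3.54% and 8.06% of the genes tested. Runs of 3 or more such genes, each within 20 loci of the next, held 14.9% of them in 40 runs, the longest of 8 genes on chromosome 19 between Csa19g014510 and Csa19g015120. No such share was computed for other genes, so the value shows neither clustering nor its absence. Within the same interval a run of 4 genes between Csa19g014800 and Csa19g015020 rested on Cs082 and Cs128.

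The 892 genes were called against the other early libraries, so low numbers of raised genes there follow from the choice. S00136E of CN 113669 had 282 of them at least 2-fold above the median, S001C2D of CN 113672 had 212 and Cs060 of CN 113723 had 203, with a median of 18 per library. Over all genes tested, in CPM without TMM scaling, 6.62% were that high in S00136E, 7.49% in S001C2D and 2.09% in Cs060. The libraries with the adjacent codes, Cs081 and Cs083, had 69 and 0. What led to the level of these genes in Cs082 was not tested.

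**Figure D5:**
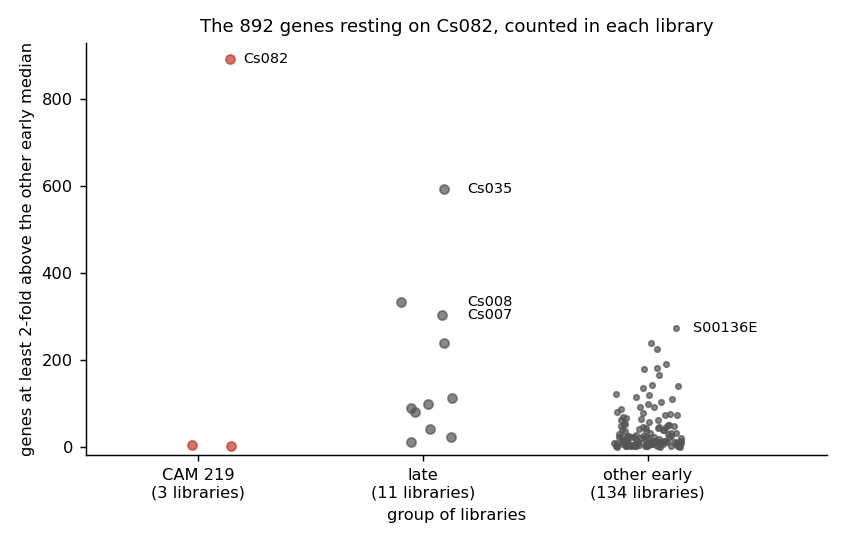
Number of the 892 genes at least 2-fold above the other early median (y axis, CPM without TMM scaling) in each library, by group (x axis); each point is 1 library. Cs035, Cs008 and Cs007 lie above every other early library, and Cs128 and S001C5C lie near 0.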

How the data were processed

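The deposited table holds raw counts per gene model (94495 models), which the authors made by trimming with Trimmomatic 0.32, aligning with STAR 2.7.10a and counting with featureCounts 2.0.1, per the submitters' processing notes. Strand setting, treatment of multi-mapped reads and annotation version are not given in the sources used here, so near-identical homeologous copies may share or lose reads. Libraries were grouped by the genotype and flowering time labels, and libraries under 200000 counts were left out. Counts of the 3 CAM 219 and 134 other early libraries were filtered with filterByExpr (48420 genes kept, a filter that drops genes present in 1 library only), scaled by TMM and fitted in 1 edgeR 4.0.16 quasi-likelihood model (R 4.3.3) with Benjamini-Hochberg adjustment and a threshold of 0.05. Standard errors were derived from the log2 fold change and F. CPM values are TMM-scaled, with a pseudocount of 1 CPM on the log2 scale, and 3 counts equal 0.579 CPM in Cs082, 0.697 in Cs128 and 0.570 in S001C5C before scaling. In Cs082 alone, Cs128 alone and S001C5C alone fits the lone library has no replicate.

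Named genes were up to 10 in each direction supported by all 3 libraries, the 5 highest and 3 lowest per single library (not all of which are printed), the flowering genes and called list members. Genes named outside that rule are said to have been chosen after their values were seen, as were those of the class shared by Cs082 and Cs128. The members, lists and rules were chosen with earlier results of these data known. Alternatives comprised DESeq2 1.42.0, RLE factors, no filter, a robust fit, each CAM 219 library left out, the code series as a covariate or Cs libraries alone, all depths, accession sums, accession as the factor, other CAM accessions only and no CN 101985 libraries, other support distances and pseudocounts, and other TAU and matching limits; the fits of single libraries were added after the data were seen. Scripts were tested on simulated data. Keyword lists and sequences were not used because the identifiers matched no reference entry.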

Additional observations from a re-analysis of the deposited data

Results flagged for a closer look

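The genes that rested on Cs082 alone were also raised in libraries of the late group, which entered no comparison of the report. Counted in CPM without TMM scaling, Cs035 of CN 113662, a late accession, had 593 of the 892 genes at least 2-fold above the other early median and held 501 of them above every other early library. Cs008 and Cs007 of CN 113692, also late, had 334 and 304. These 3 of the 11 late libraries exceeded the highest early library outside CAM 219, which had 274, and the 11 ranged from 11 to 593 with a median of 99, against a median of 18 over the other early libraries. The genes were called against those early libraries, which holds the early numbers down, whereas the late libraries took no part in the choice. Over all 48420 genes tested, 8.26% were at least 2-fold above that median in Cs035, 7.499% in Cs008 and 4.35% in Cs007, and 8.27% in Cs082. The replicates of Cs035 did not share its level, with 239 in Cs040 and 79 in Cs147, and Cs128 and S001C5C had 4 and 2. Csa05g006010.1 had 2324 CPM in Cs082 and 423 in Cs035, and Csa19g027880.1 had 352.7 and 129.1. Cs008 has a total of 646716 counts, and its part in the number was not tested.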

How the results depend on the processing

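The 980 higher genes became 479 with DESeq2, 1745 with no filter on low counts, 1820 within the Cs code series and 2589 with accession as the factor. The lower genes, 0.0743% of genes tested, became 0.741% within the Cs code series, 0.677% with accession as the factor, 0.0344% with counts summed per accession and 0.195% against only the other CAM accessions. The cause of these shifts was not tested. The fits of single libraries, added after seeing the data, gave 3193 higher genes and 1.10% lower (Cs082), 7 and 0.0154% (Cs128) and 1 and 0.0443% (S001C5C). Leaving out each CAM 219 library gave 4 to 1707 higher genes and 0 to 0.244% lower, the low ends without Cs082. Genes dominant in CAM 219 ranged from 0 to 193, and those with 90% or more in 1 library from 0 to 184, and a minimum mean of 50 CPM left 26 and 25. Called members ranged from 0 to 1 for the higher SNP genes and from 0 to 1 for the lower tan genes. Over the leave-outs the log2 fold change ranged from -3.23 to 8.53 for Csa05g006000.1, from -1.60 to 7.69 for Csa05g006010.1, from -1.08 to 5.62 for Csa05g093360.1, from -0.85 to 7.53 for Csa07g003450.1 and from -2.75 to 7.68 for Csa19g027880.1, all negative only without Cs082. The number of higher genes resting on 1 library (896) was 698 to 880 under other distances and pseudocounts. Over 21 of the named genes called with all 3 libraries, summing counts per accession ended 10 calls. DESeq2 ended 4 of the 16 for which it gave an adjusted p. It gave none for the leading genes of Cs082 alone. The genes resting on Cs128 or S001C5C alone, Csa06g042880.1 and Csa07g060540.1 were not among the 21. No paired analysis was possible because the labels give library codes and no replicate numbers shared between accessions. Depth limits genes near 3 counts.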
